A study of Drosophila simulans with 4 samples.

Results

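The genes described here are a cluster of 7 lipase-like genes with consecutive FlyBase identifiers, FBgn0039470 to FBgn0039476, of 15358 genes listed for Drosophila simulans. The cluster was chosen because it holds FBgn0039472, a gene picked for its large difference between the populations in these same libraries. The other 6 genes were taken as the lipase-like genes with identifiers consecutive to it, so they are not a random draw of genes. The names used are CG6296 (FBgn0039470), CG6295 (FBgn0039471), CG17192 (FBgn0039472), CG17191 (FBgn0039473), CG6283 (FBgn0039474), CG6277 (FBgn0039475) and CG6271 (FBgn0039476). This pairing came with the list that defined the cluster, and neither the deposited values nor the reference gene table holds it. The description of the genes as lipase-like and neighbouring, which has the same source, could not be checked against these data.

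Lipases of the family that includes the vertebrate pancreatic lipase cleave the ester bonds of dietary triglycerides or phospholipids. In D. melanogaster such enzymes are made largely in the gut, where they release fatty acids that the midgut takes up, and many of their genes lie in tandem groups. The family also holds proteins that have lost enzyme activity, such as the yolk proteins, so a family name alone does not show that a gene product is a working lipase. The sources used here do not give the role of any single gene of the cluster.

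Whole-body RNA of adult males was compared between Gotheron, a derived population from an agricultural area of the Rhône Valley in France, and Mayotte, an island population within the ancestral range. Each population gave 1 library from flies kept on the local fruit (the natural medium: apple for Gotheron, banana for Mayotte) and 1 library from flies kept on cornmeal medium. No strain, mutation or drug treatment was involved, and all flies were first-generation sons of wild-caught females. Each library combined 100 males from as many females, reared at 25°C and aged for 7 days by the sample labels and 5 days by the methods. The methods state that bacteria contaminated the natural medium in Mayotte. The labels do not name individual genotypes, so each library is an average over many wild genotypes.

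The 4 libraries held 9829895 to 10365609 reads on the listed genes, and the deposited normalised counts were scaled so that every library has the same total. Reads came from the 3′ end of transcripts, so a count does not grow with gene length, and levels of different genes are compared here as normalised counts without a length correction. The log2 ratio of Gotheron over Mayotte had a median of 0.13 over the 12508 genes that averaged 5 or more, a small general shift towards Gotheron. In whole bodies, a smaller amount of a tissue and less RNA per cell cannot be told apart. The 7 genes belong to 1 family, and how the counting divided reads between similar copies was not analysed here. With 2 libraries per population, the smallest two-sided p of an exact permutation test is 0.333 for any 1 gene, and the p-values given come from fits across all genes.

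The cluster held 4 abundant genes, of which 1 was lower in Gotheron and 3 had higher values there, 1 of these past the test. It also held a gene that was close to absent in Gotheron and 2 genes with few reads in every library. CG6295 was overexpressed in Mayotte, averaging 953 ± 2.12 normalised counts in Gotheron and 3906 ± 38.6 in Mayotte (SD, n = 2 each). CG6271 was overexpressed in Gotheron, with 775 ± 122 in Gotheron and 474 ± 75.1 in Mayotte (SD, n = 2 each). The call of CG6271 was made by the 2-step procedure but not by limma, edgeR or DESeq2, nor by the 2-step procedure without the Mayotte cornmeal library. CG6277 lay higher in Gotheron by less and did not pass the test. CG6283 did not pass either, and its log2 ratio of 0.13 was about the median of all genes. In the 2-step procedure CG6295 and CG6271 therefore differed in opposite directions between the populations.

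**Figure D1:**
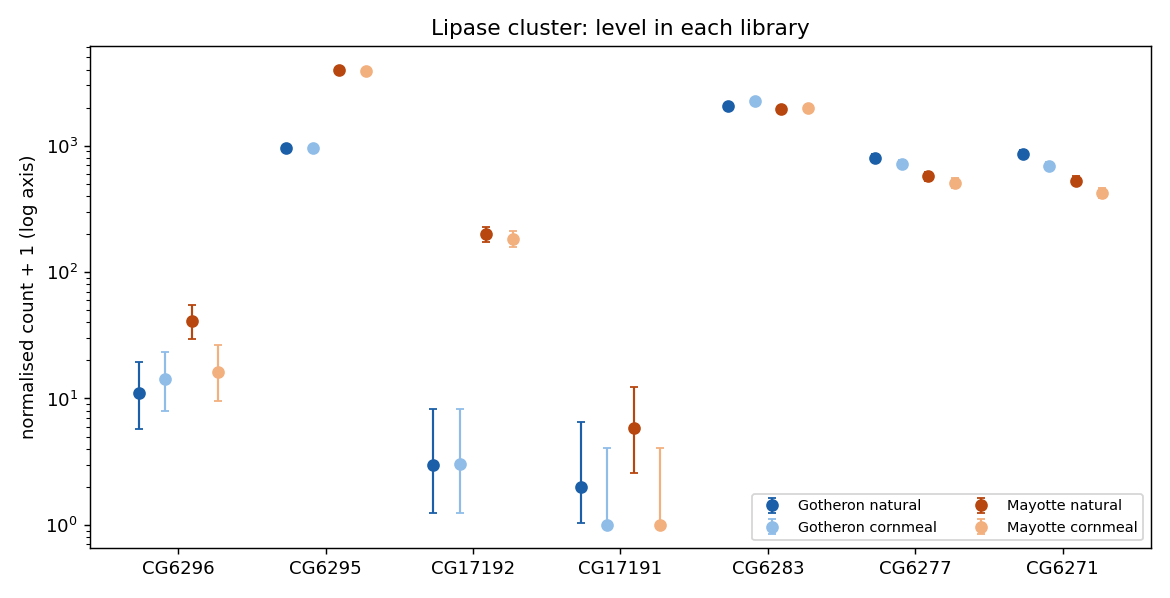
Normalised count plus 1 (log axis) of the 7 genes in each library, with Gotheron in blue, Mayotte in orange and the natural medium in the darker shade. Points are single libraries and bars are 95% exact Poisson intervals for counting error, or reach the limit of 3 reads where no read was counted. CG6295 and CG17192 separate the populations widely, with CG17192 at 1.99 and 2.03 in Gotheron against 198 and 183 in Mayotte.

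The gene that led to the choice of the cluster, CG17192, had a normalised count of 1.99 in the natural and 2.03 in the cornmeal library of Gotheron, against 198 in the natural and 183 in the cornmeal library of Mayotte. These values correspond to 2 reads in each Gotheron library, and to 204 and 179 reads in the Mayotte libraries. The populations were far apart and the media close together. On the natural medium the level in Mayotte was 99.2 times that in Gotheron, with a 95% Clopper-Pearson interval of 27.1 to 826 for counting error. On cornmeal it was 90.4 times, with an interval of 24.6 to 752. The log2 ratio of Gotheron over Mayotte was -6.57. Because the gene was chosen for this contrast, these values are a description and no test is given. CG17192 ranked above 11% and 12.2% of the listed genes in the natural and cornmeal libraries of Gotheron, and above 65.2% and 63.3% in those of Mayotte.

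CG6295, the gene with the adjacent identifier, had 955 and 952 in the natural and cornmeal libraries of Gotheron, against 3933 and 3879 in those of Mayotte. Both Gotheron libraries were low, both Mayotte libraries were high, and the libraries of a population nearly coincided. The log2 ratio of Gotheron over Mayotte was -2.03 (standard error 0.23), with a 95% interval of -2.49 to -1.58. The gene passed the 2-step overdispersed Poisson procedure, rebuilt here from the methods with a Wald test (adjusted p = 1.86e-15), and its likelihood ratio form (adjusted p = 6.45e-20). It also passed limma (adjusted p = 0.0012). With 1 prior variance for all genes in place of a trend, limma did not call it (adjusted p = 0.055). The ratio of Mayotte over Gotheron was 4.12 on the natural medium, with a counting interval of 3.83 to 4.42. On cornmeal it was 4.07, with an interval of 3.79 to 4.39. CG6295 was above 89.2% and 88.8% of all genes in the Gotheron libraries and above 97.2% in both Mayotte libraries.

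CG6271 had 861 and 689 in the natural and cornmeal libraries of Gotheron, against 528 and 421 in those of Mayotte. Every Gotheron library was above every Mayotte library, but the media also differed within each population. The log2 ratio of Gotheron over Mayotte was 0.71, with a standard error of 0.19 and an adjusted p of 0.0049 in the 2-step procedure. With limma the difference did not pass (adjusted p = 0.15). Without the Mayotte cornmeal library the 2-step procedure no longer called this gene (adjusted p = 0.21). On whole reads of the libraries other than Gotheron natural, edgeR did not call it either (adjusted p = 0.24), but Gotheron then has 1 library, which is assumed to vary like those of Mayotte. The ratio of Gotheron over Mayotte was 1.63 on both media, with counting intervals of 1.46 to 1.82 on the natural medium and 1.44 to 1.85 on cornmeal.

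CG6277 had 798 and 712 in the natural and cornmeal libraries of Gotheron, against 571 and 504 in those of Mayotte. The libraries did not overlap, and the log2 ratio of Gotheron over Mayotte was 0.49, with a 95% interval of 0.13 to 0.85. It did not pass the 2-step procedure (adjusted p = 0.099) or limma (adjusted p = 0.23). With the dispersion taken within populations it passed (adjusted p = 0.0046), and without the Gotheron cornmeal library it also passed (adjusted p = 0.027).

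CG6283 had 2076 and 2250 in the natural and cornmeal libraries of Gotheron, against 1967 and 1984 in those of Mayotte. The log2 ratio was 0.13, with a 95% interval of -0.23 to 0.49, and the adjusted p was 0.83 in the 2-step procedure. This is about the median ratio of all genes. After TMM scaling, which aligns libraries on the genes that differ least, the ratio was 0.0035 on the log2 scale and the libraries of the populations overlapped.

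CG6296 had 9.97 and 13.2 in the natural and cornmeal libraries of Gotheron, against 39.8 and 15.3 in those of Mayotte, from 10, 13, 41 and 15 reads. Only the Mayotte natural library stood high, and the Mayotte cornmeal library lay just above both Gotheron libraries. The log2 ratio of Gotheron over Mayotte was -1.25, with a standard error of 0.43 and an adjusted p of 0.063 in the 2-step procedure. It was called under 8 of the 14 alternatives to that procedure, among them TMM scaling (adjusted p = 0.028). Within the 8, the likelihood ratio form and the form with the medium as a block are the same test, counted separately. The ratio of Gotheron over Mayotte was 0.251 on the natural medium, with a counting interval of 0.112 to 0.509. On cornmeal it was 0.858, with an interval of 0.376 to 1.93. Without the Mayotte natural library the log2 ratio was -0.41 (adjusted p = 0.83).

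CG17191 was listed at 1 read in the natural and 0 reads in the cornmeal library of Gotheron, against 5 reads in the natural and 0 reads in the cornmeal library of Mayotte. A count of 0 allows up to 3 reads, which is a normalised count of 3.04 in the Gotheron and 3.07 in the Mayotte cornmeal library. No difference between the populations was detectable at this depth, and the gene fell below the mean of 5 that limma required.

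**Figure D2:**
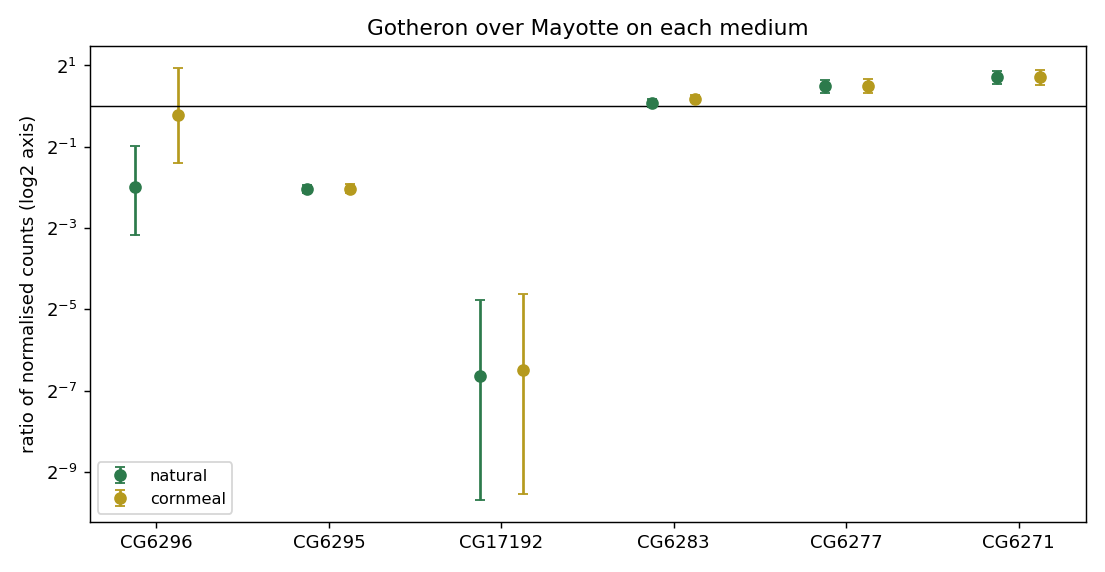
Ratio of the normalised count in Gotheron over that in Mayotte on the natural medium (green) and on cornmeal (yellow), on a log2 axis, with 1 library per population and medium. Bars are 95% Clopper-Pearson intervals for counting error, and CG17191 is left out because a library was at 0. CG6295 lies at 0.243 and 0.245 and CG6271 at 1.63 on both media, while CG6296 lies at 0.251 on the natural medium and 0.858 on cornmeal.

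Of the 6 genes chosen by identifier alone, 2 were called by the 2-step procedure, CG6271 higher and CG6295 lower in Gotheron, against 5.22% of all genes called. By direction, 3.12% of all genes were called higher and 2.10% lower in Gotheron. Limma called 1 of the 5 genes it tested, CG6295, against 1.09% of all genes tested. The libraries of the populations did not overlap for 5 of the 6 genes, against 44.2% of all genes. For 3 of these genes Gotheron was higher, against 30.8% of all genes, and for 2 it was lower, against 13.4%. The 5 genes that averaged at least 5 were above 5 in every library, so none of them passed that filter through 1 population only, whereas CG17192 did. The median log2 ratio was -0.56 over the 6 genes and 0.13 over the 5 without CG17191, against 0.13 over all 12508 genes averaging 5 or more. With members on both sides of 0, the median of the 5 is the value of CG6283 itself. For 6 genes these counts are a description of the cluster, and no test over the list was made.

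The summed normalised count of the cluster was 4703 and 4617 in the natural and cornmeal libraries of Gotheron, against 7241 and 6987 in those of Mayotte. Both sums of Gotheron lay below both of Mayotte, with means of 4660 ± 60.8 in Gotheron and 7114 ± 180 in Mayotte (SD, n = 2 each), a ratio of Gotheron over Mayotte of 0.655. Without CG6295 the order turned round, with 3707 ± 58.7 in Gotheron and 3208 ± 142 in Mayotte (SD, n = 2 each), a ratio of 1.16. The difference in CG6295 alone was larger than that in the total of the cluster. CG17192, which is in both sums, made up 0.0424% and 0.0439% of the cluster in Gotheron and 2.73% and 2.62% in Mayotte.

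CG6295 made up 20.3% and 20.6% of the cluster in the natural and cornmeal libraries of Gotheron, against 54.3% and 55.5% in those of Mayotte. CG6283 made up 44.1% and 48.7% in Gotheron, against 27.2% and 28.4% in Mayotte. The leading gene of the cluster therefore differed, with CG6283 first in both Gotheron libraries and CG6295 first in both Mayotte libraries. These shares are taken within a library and do not depend on the scaling between libraries.

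**Figure D3:**
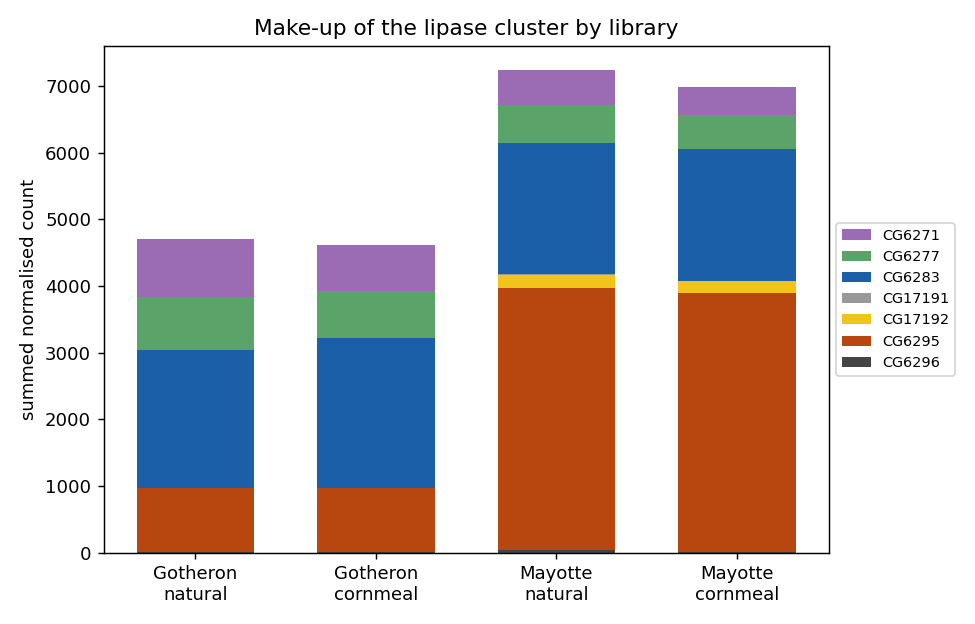
Summed normalised count of the cluster in each library, divided by gene, with the Gotheron libraries on the left. Each bar is 1 library, and CG6296 and CG17191 are too low to be seen clearly. The orange part, CG6295, is 20.3% and 20.6% of the Gotheron bars and 54.3% and 55.5% of the Mayotte bars.

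In Gotheron the order of levels was CG6283, CG6295, then CG6271 and CG6277, whose ranges overlapped, then CG6296, CG17192 and CG17191. The counting intervals overlapped between CG6296 and CG17192 in each Gotheron library, and likewise between CG17192 and CG17191. In Mayotte the order was CG6295, CG6283, then CG6277 and CG6271, whose ranges again overlapped, then CG17192, CG6296 and CG17191.

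Ratios between genes of the cluster within a library do not depend on the scaling either. CG6295 over CG6283 was 0.460 and 0.423 in the natural and cornmeal libraries of Gotheron, against 2.0 and 1.96 in those of Mayotte, and did not overlap. CG6271 over CG6277 was 1.08 and 0.967 in Gotheron, against 0.924 and 0.836 in Mayotte. Its means were 1.02 ± 0.079 in Gotheron and 0.880 ± 0.0622 in Mayotte (SD, n = 2 each), a ratio of Gotheron over Mayotte of 1.16, and the libraries of the populations did not overlap. The nearest libraries were Gotheron cornmeal (0.967, from 680 and 703 reads) and Mayotte natural (0.924, from 544 and 589 reads). No counting interval was taken for this ratio, so that small gap is a description only. CG6295 over CG17192 was 479 and 470 in Gotheron, against 19.9 and 21.2 in Mayotte, a description only, since CG17192 was chosen for its population difference. From 2 reads per Gotheron library, the first of these ratios carry a wide counting error.

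The members fell into patterns that can be compared as log2(normalised count + 1) centred on the mean of each gene over the 4 libraries. The Euclidean distance was 0.26 between CG6277 and CG6271 and 0.43 between CG6283 and CG6277, the closest pairs of the cluster. CG17192 was 3.96 from CG6295, the nearest member, and 6.70 from CG6271. Among all 12508 genes at or above that mean, the 2 with the pattern most like that of CG17192 were FBgn0051789 at a distance of 1.51 and FBgn0186294 at 1.56, both outside the cluster and without a name in the files. FBgn0051789 had 9.97 and 10.1 in the natural and cornmeal libraries of Gotheron, against 203 and 401 in those of Mayotte. FBgn0186294 had 1.99 and 1.01 in Gotheron, against 338 and 512 in Mayotte.

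Whether the medium affected these genes is a question that the choice of the cluster did not use, so all members could be tested where their level allowed. Limma with population and medium as terms called 0 of the 6 genes tested, and called 2 of all 12508 genes (0.0160%). At an unadjusted p under 0.05 it had 0 of the 6, against 862 of the 12508. The likelihood ratio test of the medium at the dispersion of the 2-step procedure also called 0 of the 7 genes, and called 1.47% of all genes. For this test the share of all genes at an unadjusted p under 0.05 is not given here. Of the 7 genes, 2 lay under it, CG6296 and CG17191. In these 2 genes the Mayotte natural library was the highest of the 4. A missed threshold does not show that the media gave equal levels.

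CG6271 had higher values on the natural medium in both populations, with a ratio of natural over cornmeal of 1.25 in Gotheron (counting interval 1.13 to 1.38) and 1.25 in Mayotte (1.10 to 1.43). Both intervals lay above 1, but they cover counting error only. Its log2 difference was 0.32 (standard error 0.16, adjusted p = 0.75 from limma). A difference of this size or larger between the media was found in many of the 12508 genes averaging 5 or more. It exceeded the difference of 58.5% of them in Gotheron and 70.4% in Mayotte. These genes were not matched for level, and those with few reads carry more counting error. For CG6277 the ratio was 1.12 in Gotheron and 1.13 in Mayotte, with an adjusted p of 0.91 from limma.

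CG6295 had a ratio of natural over cornmeal of 1.003 in Gotheron (counting interval 0.916 to 1.10) and 1.014 in Mayotte (0.970 to 1.06). Its difference between the media was smaller than that of all but 0.847% of genes in Gotheron and all but 5.48% in Mayotte. These ranks are again over genes averaging 5 or more, not matched for level. The large population difference of CG6295 stood beside an almost equal level on both media. For CG6283 the ratios were 0.923 in Gotheron and 0.991 in Mayotte. CG17192 had a ratio of 1.08 in Mayotte (counting interval 0.880 to 1.33), while the 2 reads of each Gotheron library leave the ratio there between 0.0713 and 13.6.

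**Figure D4:**
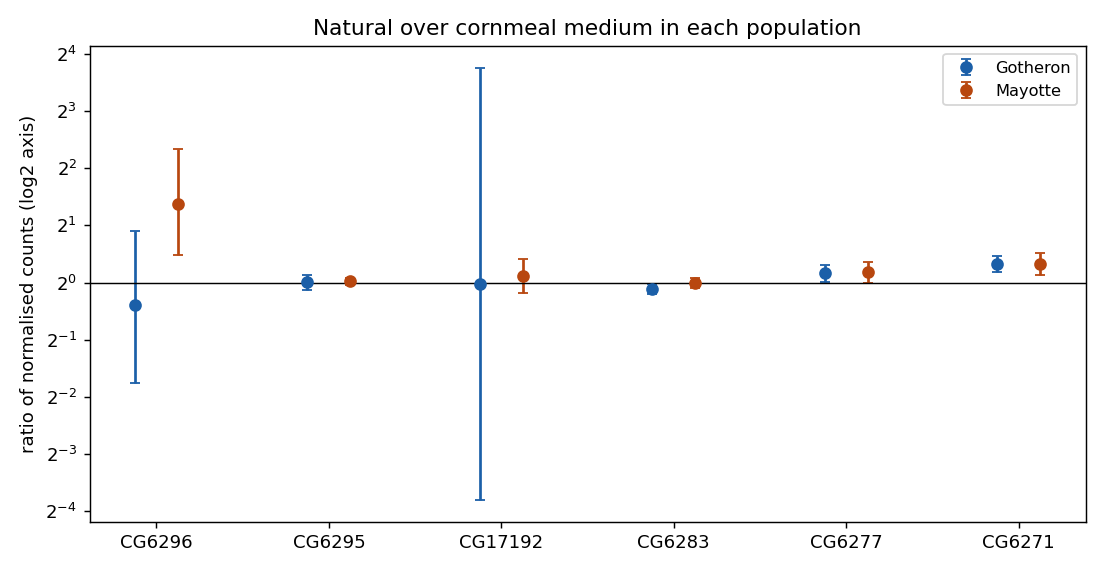
Ratio of the normalised count on the natural over the cornmeal medium in Gotheron (blue) and Mayotte (orange), on a log2 axis, with 1 library per population and medium. Bars are 95% Clopper-Pearson intervals for counting error, and CG17191 is left out because both cornmeal libraries were at 0. CG6271 lies at 1.25 in both populations, and only CG6296 shows points far apart, at 0.757 in Gotheron and 2.59 in Mayotte.

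For CG6296, a difference between the populations in the response to the medium did not pass the test after adjustment. The ratio of natural over cornmeal was 0.757 in Gotheron (counting interval 0.297 to 1.87) and 2.59 in Mayotte (1.40 to 5.04). The interaction of population and medium, tested as the deviance of the model without it over the smoothed dispersion, gave an unadjusted p of 0.047 and an adjusted p of 0.63. It called 0 of the 7 genes, against 0.508% of all genes called. At an unadjusted p under 0.05 it had 1 of the 7, and the share of all genes there is not given here. CG17191 had its 5 reads in the same library, the Mayotte natural one. With 1 library per population and medium, an effect of the medium, the bacteria reported for it and an unusual library cannot be told apart.

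The genes with identifiers on either side of the cluster were used to show where the differences lay by identifier number, which is not a map position. Of the 20 identifiers nearest to it, 10 on each side, 16 were listed, and 13 of these had a mean of at least 5. Their log2 ratios of Gotheron over Mayotte ranged from -0.32 to 1.02 with a median of 0.18, against -6.57 to 0.71 in the 6 such genes of the cluster. The 2-step procedure called 1 of the 16, against 5.22% of all genes, and limma called 0 of the 13 it tested. The 1 called was FBgn0039481, which was named after its values were seen. CG6295 lay below the range of these 13 flanking genes. CG6296 also lay below it with all libraries. Without the Mayotte natural library the log2 ratio of CG6296 was -0.41, still below -0.32 but close to it. On cornmeal alone it was -0.21 on the log2(normalised count + 1) scale. The flanking range was not taken again for these smaller sets of libraries. CG17192, which sets the low end of the cluster, was chosen for this ratio. CG6283, CG6277 and CG6271 lay within the range of the flanking genes, whose top is set by FBgn0039481 alone. The next highest log2 ratio of the 13 was 0.52. CG6271, at 0.71, lay above that value, and CG6277 and CG6283 lay below it.

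**Figure D5:**
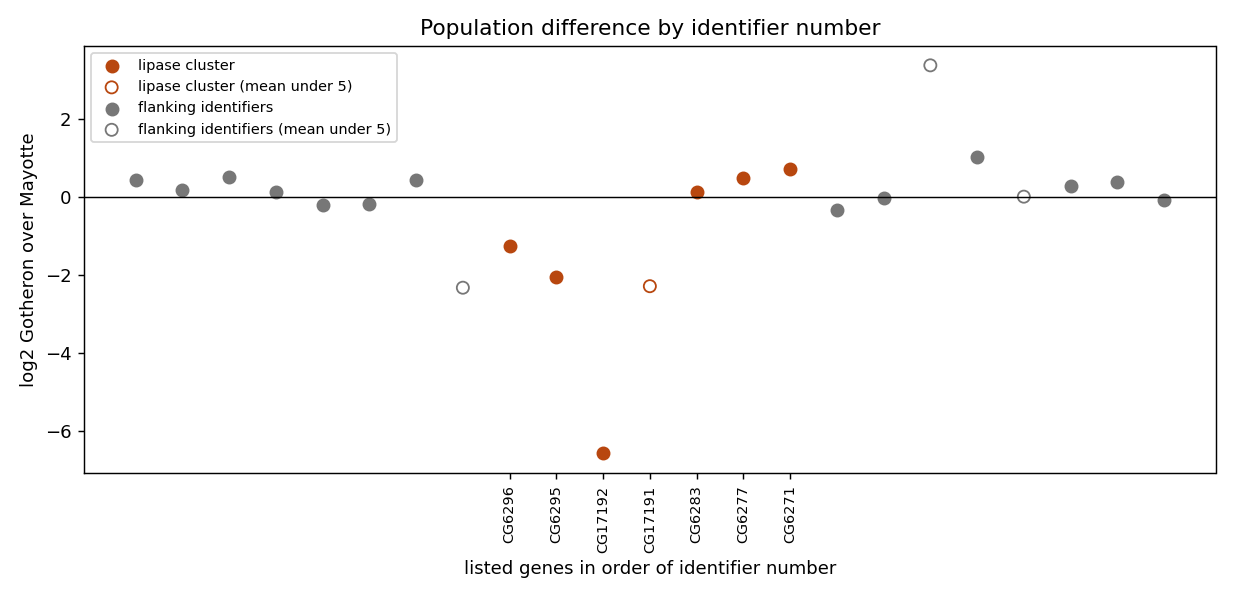
Log2 ratio of Gotheron over Mayotte (vertical axis) of the cluster (orange, named on the axis) and of the listed genes with flanking identifiers (grey), in order of identifier number. Each point is the ratio of population means of 2 libraries each, and open points have a mean normalised count under 5. The cluster spans -6.57 to 0.71, and the 13 filled flanking points span -0.32 to 1.02.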

How the data were processed

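The authors pooled 4 RNA extracts of 25 males per library and sequenced 3′ cDNA ends. ELAND, with 32 bases per read and at most 2 mismatches, placed reads first on the D. melanogaster genome and those left over on the D. simulans genome, whose genes were then translated to D. melanogaster orthologs. For genome builds and versions, the sources used here give nothing. The values deposited by the authors are a linear signal, that is, reads per gene times 1 factor for each library, which makes the totals equal. Divided by the smallest nonzero value of the library, 100% of the values were whole within 0.01. For the Gotheron natural library, whose factor is near 1, a check refused these reads, which serve here only for depth, read numbers and counting intervals.

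The 2-step procedure was rebuilt in R 4.3.3, with a Pearson dispersion around 1 mean over the 4 libraries, smoothed on the mean by loess (span 0.75, degree 2). A Wald test of the population means followed, where the methods name a likelihood ratio test, which was run as an alternative. Immunity genes, which the study left out, could not be told apart by identifier and stayed in the tests. A call needed a Benjamini-Hochberg adjusted p under 0.05 over all genes and both libraries of 1 population above both of the other. Limma 3.58.1, with a trended prior variance, took log2(normalised count + 1) of genes averaging 5 or more. edgeR 4.0.16 (robust quasi-likelihood) and DESeq2 1.42.0 were run on the 3 libraries with accepted reads and called 668 and 228 genes.

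The rule for named genes takes the 7 members and the 2 genes nearest to CG17192 in pattern. FBgn0039481 falls outside it and was named after its values were seen. The members, lists and tests were chosen with earlier results of these data known. The reference table (assembly Prin_Dsim_3.1) holds none of the 7 identifiers or names, so positions, sequences and other lipase genes were not analysed here. The labels do not say that libraries came from separate cultures, but the methods do. Each wild-caught female had her own vial, with either cornmeal or the local fruit, so the libraries came from different females. The p-values still cover the spread between these libraries only. That spread was estimated with the help of other genes, through the smoothed dispersion or the prior variance.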

Additional observations from a re-analysis of the deposited data

How the results depend on the processing

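CG6295 was lower in Gotheron under all alternatives, with a log2 ratio of -2.17 to -2.02, and was called under each except limma with 1 prior variance for all genes (adjusted p = 0.055). The 2-step procedure called 2 of the 6 genes other than CG17192. It called 3, with CG6296 added, in its likelihood ratio form (adjusted p = 0.041), which the methods name, with the quadratic curve, under the 3 other scalings and with the medium as a block. It called 4 with the dispersion taken within populations, and 2 to 3 when a library was left out. edgeR and DESeq2, on 3 libraries, each called 1, CG6295. The cause of these changes was not tested. Limma called 1 gene, 0 with 1 prior variance, and 1 to 3 when a library was left out, with 3 without the Gotheron cornmeal library. With the medium as a replicate block limma called 2, CG6271 being the added one (adjusted p = 0.047), and 314 genes in all against 136. Libraries of the same medium deviated together only weakly (r = 0.0885 across 12508 genes). In the 2-step model the block gives the likelihood ratio test itself, since the design is balanced. For the medium and the interaction 0 genes were called under every alternative run. Leaving out a library leaves no residual degrees of freedom for those fits, and they were not run.

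The log2 ratio of the cluster sum was -0.61, and -0.74 under TMM scaling, -0.67 with equal totals over all but the 10 top genes and -0.64 to -0.58 when a library was left out, an alternative chosen after seeing the data. The interaction of CG6271, -0.0015 on the log2 scale, was 0.00064 under TMM scaling.

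Over all genes, the 2-step procedure called 801 genes, 1961 with the dispersion taken within populations, 1350 without the Gotheron cornmeal library and 228 with DESeq2. Limma called 34 without a filter, 13 with 1 prior variance, 1086 and 943 without the Gotheron cornmeal or natural library and 61 without the Mayotte natural library. For the medium limma called 2 genes, 8 under TMM scaling and 0 without a filter or with 1 prior variance, and the likelihood ratio test called 226. The interaction test called 78 genes, 121 under TMM scaling and 424 with the dispersion taken within populations. Depth limits CG6296, CG17191 and the Gotheron values of CG17192, which rest on 0 to 41 reads per library.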
